A study of Mus musculus with 2 samples.

Results

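The genes described here are 10 members of the tumour necrosis factor (TNF) receptor superfamily that T cells are known for, or that share their ligands: Tnfrsf4, Tnfrsf9, Tnfrsf18, Cd27, Tnfrsf25, Tnfrsf1a, Fas, Tnfrsf1b, Ltbr and Tnfrsf26. They were chosen by gene name, and every probe carrying one of these names or a synonym was taken, which gave 13 probes of the 39429 on the array and 10 of 31701 gene names. Expression was measured in Lamtor1-deficient (KO) and wild-type (WT) CD4+ T cells of C57BL/6J mice. Lamtor1 is part of Ragulator, the lysosomal scaffold on which the nutrient-sensing kinase mTORC1 is activated. Per the labels, CD4+CD62L+ cells sorted magnetically from spleen were cultured over 5 days on immobilised anti-CD3 with anti-CD28. IL-2 was added at 50 ng/ml and TGFβ, which favours the formation of regulatory T cells, at 1 ng/ml. Both genotypes shared this culture. The labels' extraction text speaks of naive cells, so whether the RNA was taken before or after culture is not settled by them. The deleted part of Lamtor1, any Cre driver, and the age, sex and number of the mice are not given in the sources used here.

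One pair of RNA extracts was hybridised to 2 arrays of 2 colours, with the dyes exchanged between them. On array 1 KO RNA was in Cy5 and WT RNA in Cy3, and on array 2 KO RNA was in Cy3 and WT RNA in Cy5. With 1 extract per genotype there was no biological replicate and no test, and the ± given below is the technical SD of the 2 arrays. The number of arrays limits the precision. A gene was called higher or lower when both arrays showed a difference of 2-fold or more on the same side and its probe stood well above background on both arrays in KO or in WT RNA. By that rule 14869 genes were measured, and the brightest measured probe stood for a gene with several. The median technical SD of a measured gene's log2 ratio was 0.11. Where KO and WT signals are said below not to overlap, each side is 1 extract read on 2 arrays. A ratio on the same side of 0 on both arrays was common: of the 14869 measured genes, 5745 lay above 0 and 6592 below.

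TNF receptors are trimeric surface receptors for ligands of the TNF superfamily. Most of those on T cells bind TRAF adaptor proteins and feed NF-kB and MAP kinase signalling that supports survival and expansion after antigen contact. A subset carries an intracellular death domain, through which FADD and caspases, or RIP kinases, can be engaged. In T cells Tnfrsf4 (OX40), Tnfrsf9 (CD137) and Tnfrsf18 (GITR) rise on activation, GITR, OX40 and TNFR2 are abundant on regulatory T cells, and CD27 is already present on naive cells.

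In the KO extract, Fas and Tnfrsf18 were lower than in WT by 2.49-fold and 2.43-fold, and Tnfrsf1b and Tnfrsf25 were higher by 2.21-fold and 2.15-fold. Tnfrsf4 was lower by 2.05-fold in the mean and missed the 2-fold mark on array 1. Cd27, Tnfrsf26 and Tnfrsf1a differed by less than 1.5-fold, the 2 probes of Tnfrsf9 went opposite ways, and Ltbr was not well above background in either RNA. Of the 9 measured receptor genes, 2 were called higher, where 2.45% of all measured genes were, and 2 were called lower, where 6.87% of all measured genes were. Together 4 of 9 were called, where 9.32% of all measured genes were called in either direction. No count here carries a test. The members were chosen with earlier results of these data known, so these shares cannot show that the family stands apart from other genes.

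The 60-base probes whose ratios carry these differences are shown by their last 30 bases (bases 31 to 60), 5′ to 3′, with positions in build mm9 as the files give them. They show what each ratio was read from, and the capitals mark the GT repeat that sets one Tnfrsf9 probe apart from the other.
Tnfrsf4 probe A_55_P2125491, chr4:155390669-155390698, plus strand: tgcctggtggtgctcctaataaacatgcta
Tnfrsf18 probe A_55_P2025490, chr4:155402971-155403000, plus strand: cttgtacaagaataaatacttgtctagtaa
Tnfrsf9 probe A_55_P2082180, chr4:150319131-150319160, plus strand: taacatatttgtctttaccttttttaaatc
Tnfrsf9 probe A_55_P2029061, chr4:150319612-150319641, plus strand: taaaatcaGTGTGTGTGTGTGTGTGTGTGT
Tnfrsf25 probe A_55_P2116305, chr4:151494190-151494219, plus strand: ggacttggtattaaatttcgtaagaaaagc
Fas probe A_55_P2091676, chr19:34402194-34402223, plus strand: cctctctatatggaaatgtataatagaaga
Tnfrsf1b probe A_55_P2033445, chr4:144802359-144802388, minus strand: tgggtattgggaaccaaagttgggttttct
Exon and intron annotation of build mm9 was not used here. Chromosome 4 holds Tnfrsf1b, Tnfrsf9, Tnfrsf25, Tnfrsf4 and Tnfrsf18, whose probes span 10.6 Mb between Tnfrsf1b and Tnfrsf18. Chromosome 6 holds Cd27, Ltbr and Tnfrsf1a, with the Cd27 probe 129.2 kb from that of Tnfrsf1a and 73.4 kb from that of Ltbr.

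The targeted gene and the cell type markers were read first. Lamtor1 had signals of 270.0 and 281 in KO (array 1 and array 2) against 1054 and 1071 in WT, a log2 ratio of KO over WT of -1.95 ± 0.03; a probe outside the deleted part would check nothing about the labels. Beside the marker counts below, 2.45% of all measured genes were called higher and 6.87% lower. All 10 T cell markers were measured, with summed signals of 99601 and 93873 in KO against 119974 and 119390 in WT, and 2 of them were called lower, Cd4 (-1.18) and Cd5 (-1.12). Of the CD8 T and NK cell markers 9 of 10 were measured and 6 called higher, among them Xcl1 (4.03) and Klrd1 (1.78), while the CD8 chains Cd8a (0.67) and Cd8b1 (-0.55) were not called, with summed signals of 9961 and 10127 in KO against 3788 and 3666 in WT. Ncr1 was not well above background. Klrb1c, Klra8 and Tyrobp, all called higher, were well above background in KO RNA only. They passed the filter through the group where they are high, so this count does not support a direction of the list. The sums rest mainly on Nkg7 (5441 and 5711 in KO against 2751 and 2659 in WT) and Xcl1 (2165 and 2284 against 134.5 and 138). Both stood well above background in both RNAs, so the sums describe these genes and not the whole list. Of the myeloid markers 8 of 11 were measured, 3 called higher (S100a8, S100a9 and Lyz1) and 1 lower (H2-Ab1), with sums of 36969 and 36492 in KO against 23407 and 23505 in WT. Of these sums Siglech gave 22984 and 23984 in KO against 12915 and 13691 in WT, and Itgam 9309 and 8275 in KO against 5526.5 and 5285.5 in WT. Each came from a single bright probe, and the other probes of both genes were not well above background in any channel. Lyz1, Lyz2 and S100a8 were well above background in KO RNA only, and S100a9 in WT RNA on array 1 only. These genes passed the filter through KO RNA, so the myeloid counts do not support a direction. Neither do the sums, which rest mainly on the single Siglech and Itgam probes. Adgre1, Cd68 and Itgax were not well above background. Of the B cell markers Cd79a, Ms4a1, Pax5 and Blk were not well above background, and the 2 measured ones summed to 468 and 445 in KO against 364 and 310 in WT. The 3 measured of 6 stromal and endothelial markers summed to 1101 and 1187 in KO against 1072 and 1073 in WT, with none called. The part of these markers in the receptor values was not tested, and in bulk RNA a smaller share of cells with a transcript and less transcript per cell cannot be told apart.

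**Figure D1:**
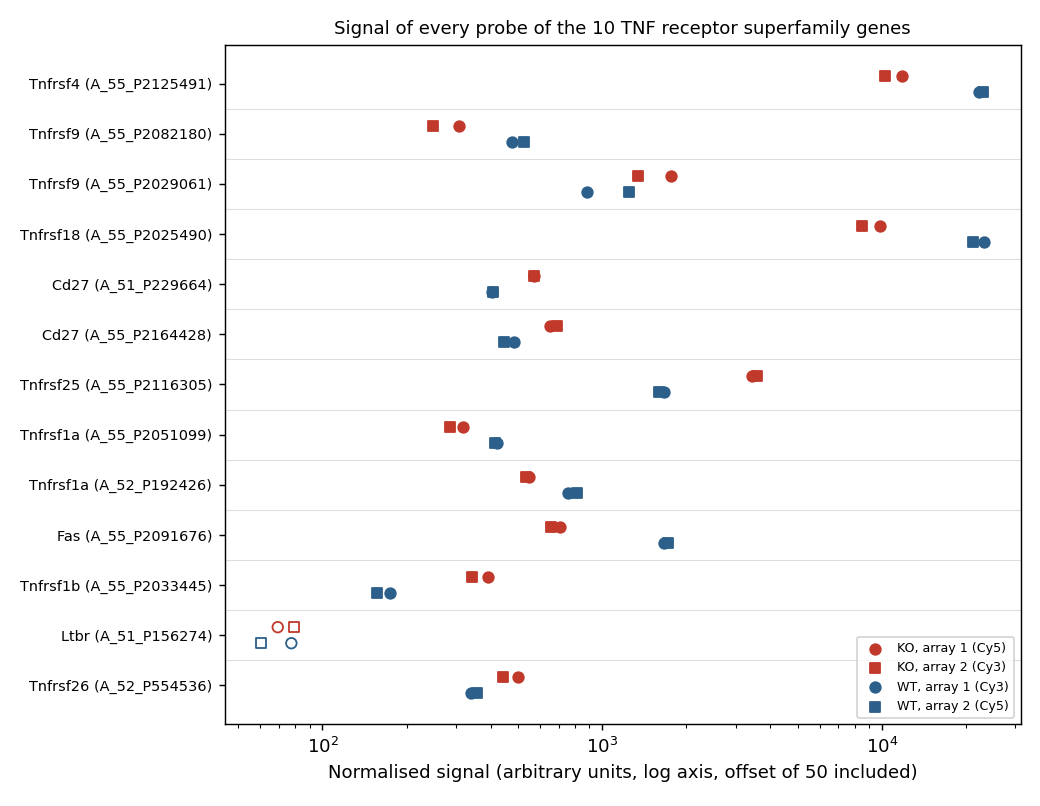
Normalised signal (arbitrary units, log axis) of each of the 13 probes in KO (red, upper of each pair) and WT (blue), with circles for array 1 and squares for array 2 and hollow symbols where a spot was not well above background. Tnfrsf18 lies between 8496 and 9881 in KO against 21276 and 23280 in WT, and the Ltbr probe reaches at most 79.2 in any channel.

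Among the costimulatory receptors, Tnfrsf18 and Tnfrsf4 both had ratios below 0 on both arrays, and Tnfrsf18 was called lower. Tnfrsf18 encodes GITR, which costimulates effector T cells and is a standing feature of regulatory T cells. Its single probe (chromosome 4, 155402941 to 155403000) had signals of 9881 and 8496 in KO against 23280 and 21276 in WT. Both KO signals lay below both WT signals, the log2 ratio was -1.24 on array 1 and -1.32 on array 2, and the mean was -1.28 ± 0.06, or 2.43-fold lower. That placed Tnfrsf18 at the 5.1 percentile of the ratios of all measured genes.

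Tnfrsf4 encodes OX40, which prolongs the survival of activated CD4+ T cells. Its probe (chromosome 4, 155390639 to 155390698) had signals of 11851 and 10241 in KO against 22190 and 23017 in WT, again without overlap. The log2 ratio was -0.91 on array 1 and -1.17 on array 2, with a mean of -1.04 ± 0.19, so the rule of 2-fold on each array was missed on the array with KO in Cy5. Under the alternatives tried it was called lower in 3 of 13 (Tnfrsf18 in 12 of 13, all but median centring, where array 1 gave -0.94), and its ratio lay below 0 in all 11 that give one, from -1.67 to -0.91. The Tnfrsf4 and Tnfrsf18 probes lie 12.3 kb apart.

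Tnfrsf9 encodes CD137, an inducible receptor best known for sustaining CD8 T cells. It had 2 probes, 481 bases apart on chromosome 4, that disagreed. The probe without a repeat had signals of 307 and 249 in KO against 475 and 524 in WT, with log2 ratios of -0.63 and -1.07 and a mean of -0.85 ± 0.31. The brighter probe, which by the rule stood for the gene, had signals of 1761 and 1345 in KO against 886 and 1245 in WT, with log2 ratios of 0.99 and 0.11 and a mean of 0.55 ± 0.62. The direction of Tnfrsf9 therefore depends on the probe. Over the 11 alternatives that give a ratio it was above 0 in 9, which all read the brighter probe alone. It was below 0 in the 2 that bring in the other probe, so this tally follows from the choice of probe.

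The brighter Tnfrsf9 probe ends in a run of 11 GT units, shown in capitals above. Its ratio differed by 0.88 between the arrays, a gap exceeded by 0.31% of measured probes. Of the measured probes of other genes, 68 held a run of at least 8 GT units. Their median log2 ratio was 1.06 on array 1 and 0.23 on array 2, their means ran from 0.01 to 0.74 with quartiles of 0.61 and 0.68, and all 68 were higher on array 1 than on array 2. The median over all 18568 measured probes was -0.03. The Tnfrsf9 repeat probe lay inside the range of the 68 means, with 8 of them below it. This comparison was chosen after the values were seen, and leaving out repeat probes leaves -0.85 for Tnfrsf9.

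**Figure D2:**
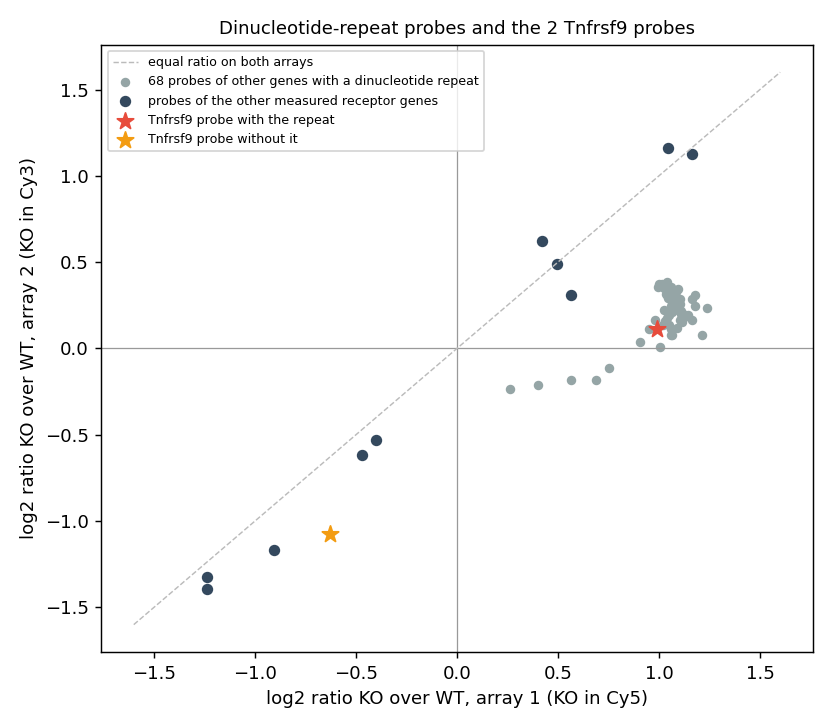
Log2 ratio of KO over WT on array 1 (x axis) against array 2 (y axis) for the 68 other probes with a GT repeat (grey), the 2 Tnfrsf9 probes (stars) and the probes of the other measured receptor genes (dark blue), with a dashed line of equal ratios. The repeat probes gather near 1.06 on array 1 and 0.23 on array 2 together with the Tnfrsf9 repeat probe, while the second Tnfrsf9 probe lies below 0 on both arrays.

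Cd27 encodes a receptor present on naive T cells whose ligand is CD70, and its loss marks late differentiation. Its brighter probe (chromosome 6, 125183200 to 125183259) had signals of 649.6 and 687 in KO against 486 and 447 in WT, with log2 ratios of 0.42 and 0.62 and a mean of 0.52 ± 0.14. The second probe had signals of 569 and 572 in KO against 403 and 408 in WT, a mean log2 ratio of 0.49 ± 0.01. Both probes were thus higher in KO on both arrays, without overlap, at 1.43-fold and 1.41-fold, and Cd27 was not called.

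The 3 measured receptors with a death domain went different ways. Tnfrsf25 encodes DR3, the receptor of Tnfsf15 (TL1A), which costimulates T cells and expands regulatory T cells. Its probe (chromosome 4, 151494160 to 151494219) had signals of 3450 and 3589 in KO against 1670 and 1603 in WT. No KO signal overlapped a WT signal, and the log2 ratio was 1.05 on array 1 and 1.16 on array 2, with an SD of 0.08 and a mean fold of 2.15 higher in KO, above 97.7% of measured genes. The call held in 12 of 13 alternatives. It was lost with median centring in place of loess, where the mean was 0.52 and the ratio on array 2 was -0.18.

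Fas encodes the receptor of Fas ligand, which drives the death of repeatedly activated T cells. Its probe (chromosome 19, 34402164 to 34402223) had signals of 706 and 655 in KO against 1665 and 1721 in WT. The KO and WT signals did not overlap, with log2 ratios of -1.24 and -1.39 and a mean of -1.32 ± 0.11, 2.49-fold lower. Fas lay at the 4.9 percentile of all measured genes, next to Tnfrsf18, from which it differed by less than the technical SD, and was called lower in all 13 alternatives.

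Tnfrsf1a encodes TNFR1, the broadly expressed death domain receptor of TNF and lymphotoxin alpha. Its brighter probe (chromosome 6, 125312376 to 125312435), spotted 10 times, had mean signals of 547 and 532 in KO against 757 and 816 in WT, and a log2 ratio of -0.54 ± 0.10. Over single spots the log2 ratio ran from -0.54 to -0.39 on array 1 (10 spots) and from -0.68 to -0.51 on array 2 (9 spots), so no spot reached 2-fold or 0. The second probe had signals of 318.5 and 286 in KO against 419.8 and 413.5 in WT, a log2 ratio of -0.46 ± 0.09. Both probes were lower in KO at 1.46-fold and 1.38-fold, and Tnfrsf1a was not called.

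Tnfrsf1b encodes TNFR2, the second receptor of TNF, which lacks a death domain and binds TRAF2. Its probe (chromosome 4, 144802359 to 144802418) had signals of 389.6 and 342 in KO against 174 and 157 in WT. Every KO signal lay above both WT signals. The log2 ratio was 1.16 on array 1 and 1.12 on array 2, and the mean of 1.14 ± 0.03 (2.21-fold higher) lay above 97.9% of measured genes, with Tnfrsf25 higher than Tnfrsf1b on array 2. The call held in 12 of 13 alternatives and was lost with median centring, where the ratio on array 2 was 0.39. The 2 TNF receptors thus stood on opposite sides of 0 on both arrays, Tnfrsf1b at 1.14 and Tnfrsf1a at -0.54.

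Ltbr, which encodes the lymphotoxin beta receptor and is known from stromal and myeloid cells more than from lymphocytes, had a probe (chromosome 6, 125256614 to 125256673) that was not well above background in any channel. Its signals were 69.2 and 79.2 in KO against 77.4 and 60.3 in WT, which overlap, and no ratio was read from it. Tnfrsf26 belongs to a cluster of mouse genes on chromosome 7 with Tnfrsf22 and Tnfrsf23, which encode decoy receptors for the ligand TRAIL. Its probe (chromosome 7, 150793990 to 150794049) had signals of 502 and 443 in KO against 339 and 357 in WT, a log2 ratio of 0.44 ± 0.18, higher on both arrays and not called. Tnfrsf23 stood at 0.56 ± 0.15 and Tnfrsf22 at -0.12 ± 0.25.

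**Figure D3:**
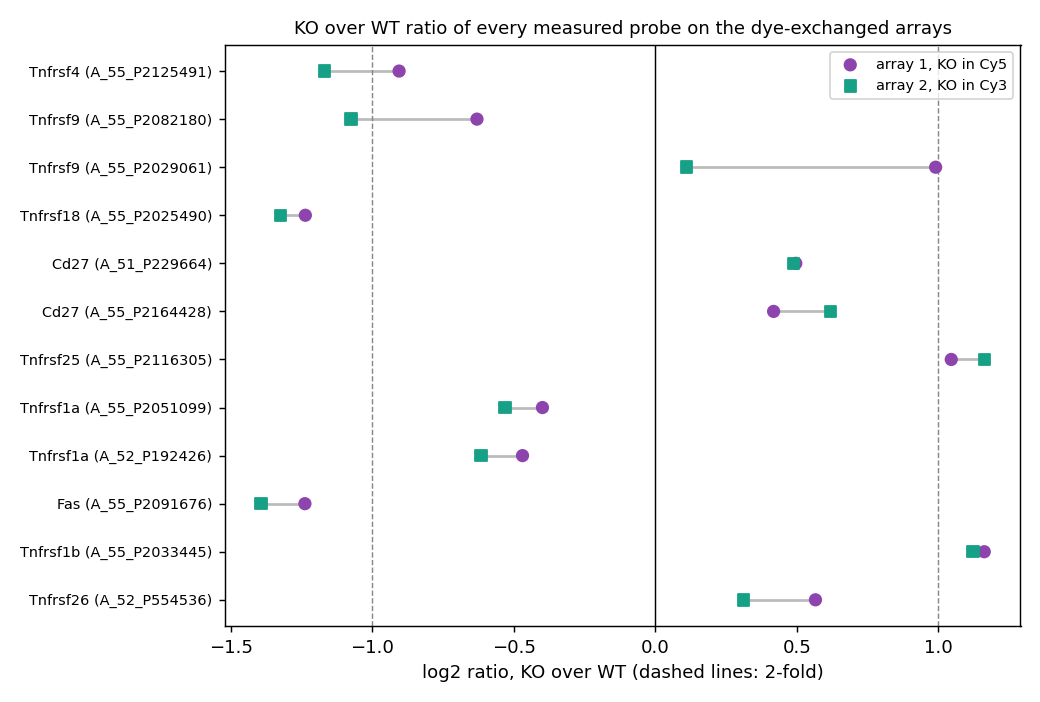
Log2 ratio of KO over WT for each of the 12 measured probes on array 1 (purple circles) and array 2 (green squares), with dashed lines at 2-fold and Ltbr, not well above background, left out. Tnfrsf18 and Fas lie beyond 2-fold below 0 on both arrays, Tnfrsf25 and Tnfrsf1b beyond 2-fold above 0, and the Tnfrsf9 probes on opposite sides.

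The median log2 ratio of the 9 measured genes was 0.44, against -0.02 for all measured genes. This median is the middle value of 5 genes above 0 and 4 below and depends on the Tnfrsf9 probe: without repeat probes it was -0.54. With median centring the median of all measured genes moved to -0.37, and relative to it the receptors stood at -1.54 for Tnfrsf18, -1.47 for Fas, -1.30 for Tnfrsf4, -0.64 for Tnfrsf1a, 0.38 for Tnfrsf9, 0.42 for Tnfrsf26, 0.44 for Cd27, 0.89 for Tnfrsf25 and 1.24 for Tnfrsf1b. In these means of the 2 arrays each of the 9 genes kept the sign it had after loess. The single arrays, not set against the all-gene median, split around 0 for some genes. On array 1 and array 2, Tnfrsf9 gave 1.16 and -1.15 and Tnfrsf26 0.75 and -0.66. Cd27 gave 0.60 and -0.46, and Tnfrsf25 1.23 and -0.18. The other measured receptors stayed on the same side of 0 on both arrays.

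Promoters are shown for the 3 genes with the lowest ratios, Fas, Tnfrsf18 and Tnfrsf4, and for Tnfrsf1b, to set the neighbouring pair Tnfrsf18 and Tnfrsf4 beside 2 others. They are the 250 bases before the annotated start, from RefSeq (GRCm38.p6, with coordinates of that build), 5′ to 3′ on the gene's strand. A loose form of NF-kB sites, GGG followed by any 5 bases and CC, was searched on both strands, and capitals mark its matches, which may overlap.
Tnfrsf18, chr4:156026072-156026321, plus strand: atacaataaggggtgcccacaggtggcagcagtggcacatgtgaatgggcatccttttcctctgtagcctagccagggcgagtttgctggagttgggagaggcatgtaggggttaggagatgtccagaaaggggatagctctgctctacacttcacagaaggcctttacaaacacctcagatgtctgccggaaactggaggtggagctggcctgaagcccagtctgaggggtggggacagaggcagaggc
Tnfrsf4, chr4:156013445-156013694, plus strand: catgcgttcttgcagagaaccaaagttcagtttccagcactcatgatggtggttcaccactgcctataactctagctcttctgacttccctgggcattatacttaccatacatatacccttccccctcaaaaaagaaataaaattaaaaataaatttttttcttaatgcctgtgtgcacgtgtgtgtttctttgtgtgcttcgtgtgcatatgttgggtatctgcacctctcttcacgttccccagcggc
Fas, chr19:34290409-34290658, plus strand: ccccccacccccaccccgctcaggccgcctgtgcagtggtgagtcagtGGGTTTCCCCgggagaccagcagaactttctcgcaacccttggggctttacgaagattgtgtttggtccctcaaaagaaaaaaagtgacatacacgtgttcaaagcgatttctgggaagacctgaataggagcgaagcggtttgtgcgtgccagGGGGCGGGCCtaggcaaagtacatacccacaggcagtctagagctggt
Tnfrsf1b, chr4:145246871-145247120, minus strand: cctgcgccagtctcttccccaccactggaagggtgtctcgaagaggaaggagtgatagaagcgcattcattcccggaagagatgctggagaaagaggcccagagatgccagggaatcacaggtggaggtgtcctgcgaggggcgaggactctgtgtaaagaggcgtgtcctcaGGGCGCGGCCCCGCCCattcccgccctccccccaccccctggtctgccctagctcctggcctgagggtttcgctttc
Neither Tnfrsf18 nor Tnfrsf4 held a match in this window, which says only that these letters are not in it, while the Fas and Tnfrsf1b promoters each held 3 matches, some of them overlapping. The promoter of Tnfrsf1a held 1 match and each of the 2 promoters of Tnfrsf25 held 3. Of the 9 receptor genes with a promoter in the table, 7 held a match, in 8 of 11 promoters (72.7%), where 45.8% of all 32851 promoters of the same length did. A match is a description of the letters and not a binding site.

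The ligands are the other side of each receptor. Of 17 TNF superfamily ligand genes, 14 were measured, and their median log2 ratio was -0.47. On both arrays 10 of the 14 lay below 0 and 2 above 0, where 6592 of all 14869 measured genes lay below 0 and 5745 above 0. Of these ligands Tnfsf4, Cd70 and Tnfsf13b were well above background in WT RNA only, and Tnfsf14 was so in KO RNA on array 1 only. All of them passed the filter through WT RNA, the group where they are high, and neither the tally nor the median supports a direction of the list. In calls, 1 was higher and 2 were lower, where 2.45% and 6.87% of all measured genes were. The ligand of the Tnfrsf9 receptor, Tnfsf9, was called lower, with signals of 93.6 and 135 in KO against 224 and 283.5 in WT (-1.16 ± 0.13). Tnfsf8, which encodes the CD30 ligand, had signals of 186 and 241 in KO against 896 and 1150 in WT (-2.26 ± 0.01), a 4.80-fold difference and the lowest among the ligands. Tnfsf10, which encodes the death-inducing ligand TRAIL, was called higher, with signals of 1034 and 1013 in KO against 307 and 329 in WT (1.69 ± 0.09).

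The remaining ligands of the receptors were not called. Tnf itself, the ligand of both TNF receptors, had signals of 739 and 693 in KO against 605 and 566 in WT, a log2 ratio of 0.29. Lymphotoxin alpha (Lta), which binds the same receptors, was at -0.80 ± 0.11, and Ltb, its partner in the ligand of Ltbr, at -0.47 ± 0.02. Fasl was at -0.37 ± 0.20 and Tnfsf15, the ligand of Tnfrsf25, at 0.04 ± 0.23, with the arrays on opposite sides of 0. Tnfsf14, a ligand of Ltbr, was at -0.60 and, in KO RNA, above background on array 1 only. Tnfsf4, the OX40 ligand, and Cd70, the CD27 ligand, were not well above background in KO and were at least 1.62-fold and at least 1.37-fold lower there. Tnfsf18, the GITR ligand, was not well above background in either RNA.

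**Figure D4:**
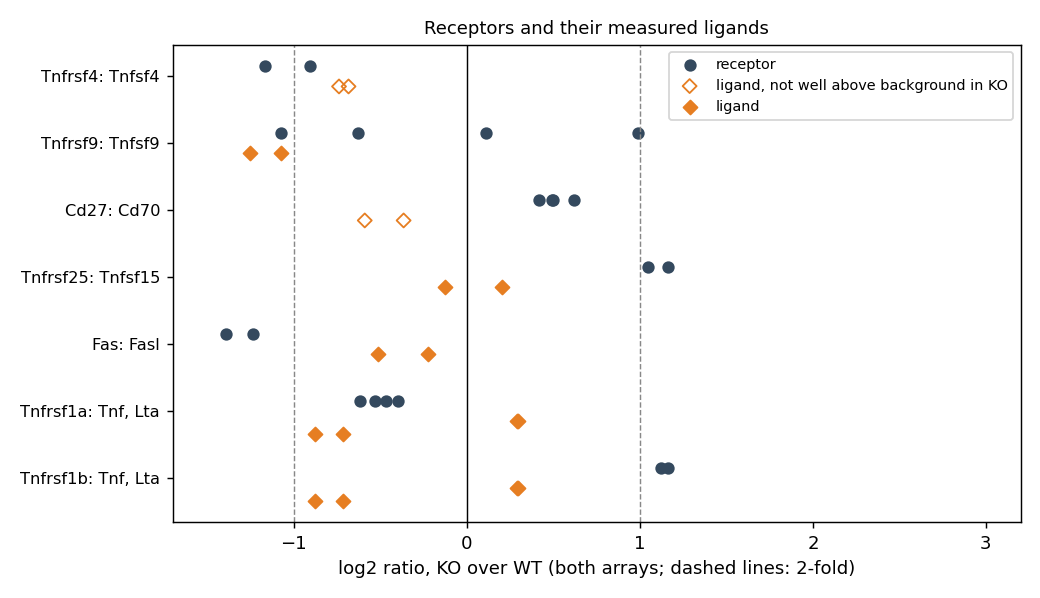
Log2 ratio of KO over WT on both arrays for receptors (dark circles, all probes) and the ligands named after each on the left axis (orange diamonds, hollow where the KO RNA was not well above background), with dashed lines at 2-fold. Tnfrsf25 and Tnfrsf1b lie above 1 while their ligands Tnfsf15, Tnf and Lta lie between -0.88 and 0.29, and Fas lies below -1 with Fasl between -0.51 and -0.22.

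The bounds given as "at least" set the bright RNA's mean against, on each array, a floor: the probe's own signal or, where higher, the dimmest signal of any probe that stood well above background. The same holds for Cd40, the only gene called higher among the other TNF receptor superfamily genes. Cd40, the receptor of CD40 ligand and best known from antigen-presenting cells, had signals of 311 and 248 in KO against 70.9 and 56.9 in WT, where it was not well above background, and was at least 3.81-fold higher. With the stricter filter on dim probes, which asks for both RNAs to be well above background, it was not called, and with the processed signals 3 genes of this list were called higher. Tnfrsf10b, the mouse receptor of TRAIL, was called lower, with signals of 172 and 179 in KO against 615.5 and 694 in WT (-1.90 ± 0.08). Of 18 such genes 10 were measured, with a median of 0.28. In calls, 1 was higher and 1 lower, where 2.45% and 6.87% of all measured genes were. TRAIL and its receptor thus lay on opposite sides, Tnfsf10 above and Tnfrsf10b below 0 on both arrays.

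Downstream of the receptors, all 24 listed TRAF adaptors and receptor-proximal regulators were measured, with a median of 0.14. Of them 2 were called higher and 1 lower, 3 of 24, where 9.32% of all measured genes were called. Traf1, which is induced by NF-kB and joins TRAF2 at OX40, CD137 and TNFR2, was lower, with signals of 749 and 809.6 in KO against 2713 and 2829 in WT (-1.83 ± 0.04). Tank, a TRAF-binding regulator, was higher on both of its probes (1.76 and 1.62). Traf6, an adaptor shared with interleukin-1 and Toll-like receptors, was at 1.67 ± 0.09 by its brighter probe and at 0.55 by the second, which did not reach 2-fold. Traf2, the adaptor most of these receptors use, was at 0.52, Traf3 at -0.06 and Traf5 at 0.65, none called.

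Of 20 NF-kB subunits and feedback targets 19 were measured, 0 called higher and 1 lower, where 2.45% and 6.87% of all measured genes were, with a median of 0.08. The lower one was Bcl3, an atypical IkB protein that acts in the nucleus, with signals of 1026 and 900.0 in KO against 2547 and 2408 in WT (-1.37 ± 0.08). The feedback targets Nfkbia and Tnfaip3 stood at -0.27 and 0.08, and Rel was not well above background. All 15 death receptor effectors were measured, 1 called higher and 1 lower beside the same shares of all genes, with a median of -0.13. Casp6, an effector caspase, had signals of 996 and 1120.3 in KO against 431 and 424 in WT (1.30 ± 0.14), and Ripk3, the kinase of necroptosis, had 549 and 472 in KO against 1391 and 1333 in WT (-1.42 ± 0.11). Fadd and Casp8, which assemble on Fas, stood at -0.46 and 0.54 and were not called. With median centring Tnfsf10, Tank, Traf6 and Casp6 were no longer called.

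**Figure D5:**
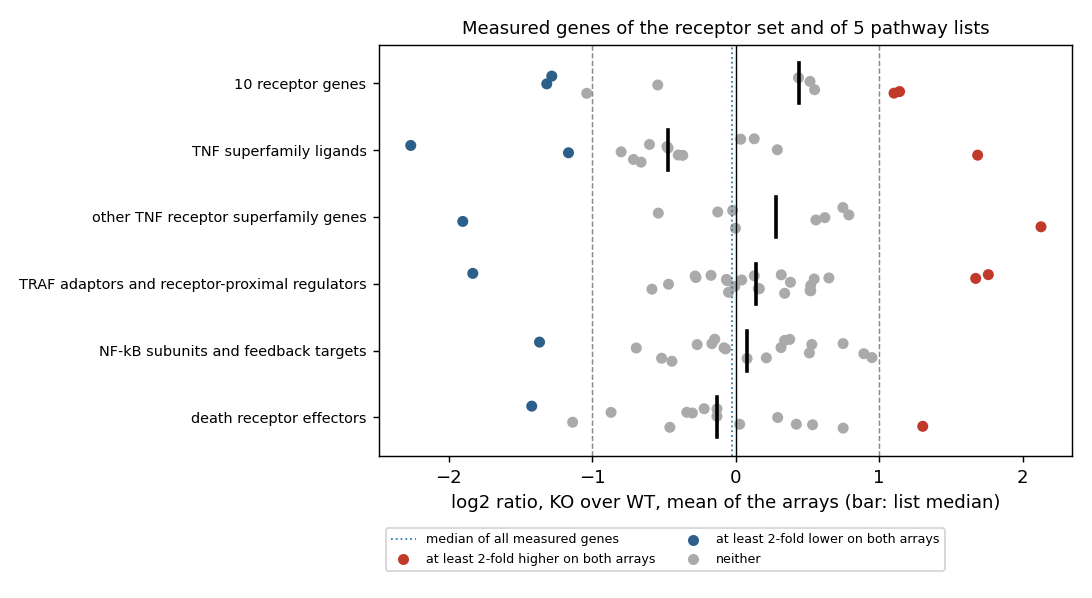
Mean log2 ratio of KO over WT for each measured gene of the receptor set and of 5 pathway lists (points, red at least 2-fold higher and blue at least 2-fold lower on both arrays, grey neither), with black bars at list medians and a dotted line at the median of all measured genes, -0.02. List medians run from -0.47 for the ligands to 0.44 for the receptor set, and both move with the processing.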

How the data were processed

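Dual-colour scanner files of 2 arrays were used, each with 44397 spots (1377 controls). Per the file headers, the deposited files hold mean and local background intensity per spot, and a processed intensity. These headers name Agilent Feature Extraction 10.7.3.1, whereas version 10.5.1.1 stands in the submitters' processing notes. The deposited series matrix gave, as log10 values, the same Cy5 over Cy3 ratios as the scanner files. Scanner intensities were corrected with normexp (offset 50) and loess within each array in limma 3.58.1 (R 4.3.3), with controls at weight 0, and 206 and 214 outlier spots left out. Spots of a probe were averaged and log2 ratios turned to KO over WT. The steps were tested on simulated dye-swap data. The offset shrinks ratios of dim probes, and per-channel signals (after Aquantile) include it. Probes were named by accession (26155), current symbol (3131) or synonym (909) against RefSeq GRCm38.p6, and 9234 kept the file's name. The arrays were counted as 1 replicate, so no tests were made. Depth does not apply to arrays, and no spot was saturated. The genes named are all 10 receptors with every probe, every measured ligand of theirs, and the called genes of each list, with others given for context after their values were seen. The members and lists were chosen with earlier results of these data known. Alternatives were Feature Extraction's processed signals, the series matrix, no background subtraction, an offset of 1, median centring, other filters on dim probes, the median over a gene's probes, each array alone, 2 other call rules and, chosen after seeing the data, leaving out GT repeat probes.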

Additional observations from a re-analysis of the deposited data

How the results depend on the processing

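Of the 4 called receptors, all kept their call under 12 of the 13 alternatives, and median centring left 0 higher and 1 lower (Fas). Tnfrsf4 was also called lower under 3 alternatives. The receptors' median log2 ratio of 0.44 became 0.0067 with median centring, -0.15 with the median over a gene's probes, 0.11 on the array with KO in Cy3 and -0.54 without GT repeat probes. Among all measured genes, 866 higher and 1613 lower were called with the processed signals and with the series matrix, 607 higher with an offset of 1, 557 higher on the array with KO in Cy5, 1007 higher and 2005 lower at 1.5-fold, and 111 higher and 879 lower with median centring, against 364 and 1022. Lamtor1 stood at -2.18 with the processed signals and the series matrix, -2.02 without background subtraction, -2.17 with an offset of 1 and -2.39 with median centring. Ligands called lower numbered 7 with the processed signals or the series matrix and 4 with an offset of 1, and the ligand median was -0.95 with the processed signals or the series matrix and -0.87 with an offset of 1. Other receptors called higher, 1 in all (Cd40), numbered 3 with the processed signals and 0 where both RNAs had to be well above background. The ligands, the TRAF list and the death effectors had 0 called higher with median centring. In the NF-kB list, with 0 higher and 1 lower in the main setting, the processed signals and the series matrix each gave 2 higher and 2 lower. An offset of 1 gave 1 higher there, and 1.5-fold on each array gave 2 higher. The cause of these shifts was not tested. No called receptor changed sign in its mean ratio, while Tnfrsf9, not called, did. No paired analysis was possible because each genotype had a single extract. Signal near background limits Ltbr, Tnfsf4, Tnfsf18 and Cd70, and the missing biological replicates limit every value.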
